A study of Mus musculus with 2 samples.

Results

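The genes described here are 32 transcription factor genes that pattern the limbs, the face and the somites of the embryo: the non-Hox homeobox genes Prrx1, Prrx2, Shox2, Pitx1, Alx1, Alx4, Uncx, Lhx2, Lhx9, Lmx1b, Meis1, Meis2, Meis3, Pbx2, Pbx3, Irx1, Irx2, Irx3, Irx5, Six2, Six4, En1, Emx2, Meox1, Meox2, Nkx3-2, Barx1 and Barx2, and the Pax genes Pax1, Pax3, Pax7 and Pax9. They were chosen by name, as every probe set whose only annotated gene symbol is one of these, and make up 32 of the 18193 genes that the array tells apart in this way and 62 of their 34945 probe sets. They were measured in cells of Col2a1-Venus-Tg mouse embryos of C57Bl/6 background, in which a transgene marks chondrocytes, the cells of cartilage, with Venus, a modified green fluorescent protein. Both groups carry the transgene. One is the Venus-positive and the other the Venus-negative fraction of a fluorescence-activated sort, and total RNA of each was hybridised to 1 Affymetrix Mouse Genome array. Neither the age and number of the embryos nor the part of the body and the gates used are stated in the labels.

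Homeobox genes encode factors that bind DNA through the homeodomain, a compact helical fold, and Pax factors bind through a paired domain, some with a homeodomain as well. In the embryo they set position and tissue identity rather than making matrix: LIM and Prrx genes act in the undifferentiated mesenchyme of the limb bud, Meis, Pbx and Irx genes (the TALE class, named for an extra loop in the homeodomain) pattern it along its length, Pax1, Pax9 and Nkx3-2 act in the sclerotome that forms the vertebrae, and Pax3 and Pax7 mark the precursors of skeletal muscle and parts of the neural tube and neural crest. Cartilage condenses from mesenchyme that has expressed many of them. The comparison gives their signal in Venus-positive cells against Venus-negative cells, family by family.

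Each fraction was measured once, so there is no replicate error and no test, and every difference is one between these 2 arrays. A signal is the linear MAS5 intensity of a probe set. Signals of different probe sets were ranked only to choose 1 per gene, and were summed only to describe marker lists. A floor of 22.5, the median signal of both arrays together without control probe sets, replaced all lower signals. A gene counts as measured when any probe set of it reached the floor in either fraction, and is represented by its brightest probe set (by mean log2 signal). Log2 ratios set Venus-positive against Venus-negative cells, so that positive values mean a higher signal in cartilage cells. The median ratio over all 11789 measured genes was -0.33, because the Venus-positive array was dimmer for the typical gene, so a relative log2 ratio with this median subtracted is given as well. Over the 5445 genes that had more than 1 measured probe set, the pooled standard deviation (SD) of their log2 ratios was 0.34, which shows only how far probes disagree within these arrays. The sort matched its label: all 17 cartilage genes of a marker list were at least 4-fold higher in Venus-positive cells, with Col2a1 at 8443 against 606 and Sox9 at 1601 against 338, though Col2a1 drove the reporter and its difference checks the sort only.

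Of the 32 factors 28 were measured, and as a group they were lower in the cartilage fraction. Above the floor on both arrays were 22 of them. Another 3 were below it in Venus-negative cells and 3 in Venus-positive cells, so that their ratios are bounds. Cartilage cells had a signal reduced by at least 2-fold for 13 of the 28 (46.4%), where 11.6% of all measured genes were, and at least 2-fold higher for 1 (3.57%), where 2.79% were. Relative to the median gene 10 were at least 2-fold lower (35.7%, against 6.45% of all genes) and 2 at least 2-fold higher (7.14%, against 5.06%). The factors counted as higher, Barx1 and on the relative scale also Alx1, reached the floor in Venus-positive cells only. At 4-fold, Meox2, Emx2 and Irx5 were lower, 10.7% of the measured factors against 2.24% of all measured genes, and Barx1 was higher, 3.57% against 0.874%. The median log2 ratio of the factors was -0.71, or -0.37 relative to the median gene. In bulk RNA of this kind, fewer cells of a type and less RNA per cell cannot be told apart.

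**Figure D1:**
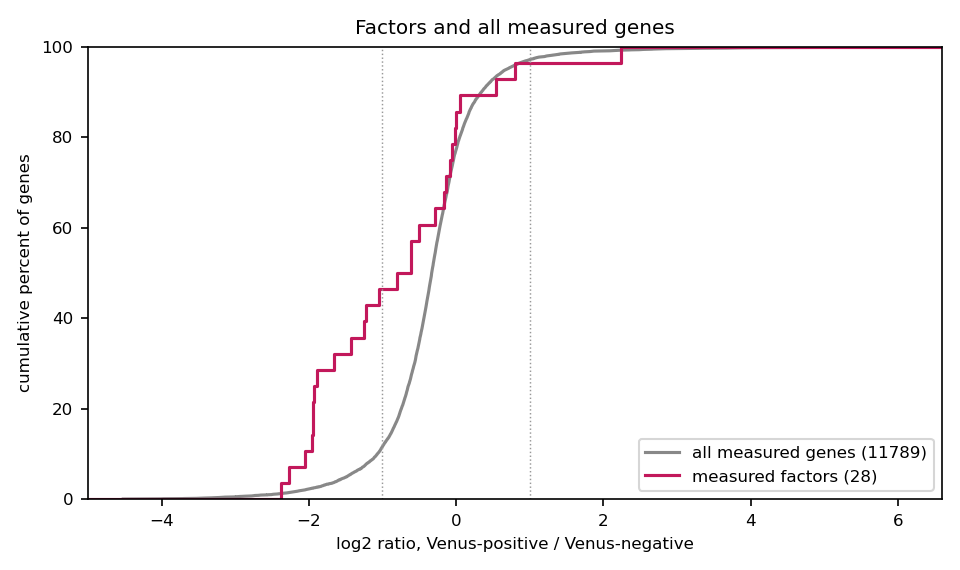
Cumulative percent of genes (y axis) by log2 ratio, Venus-positive cells over Venus-negative cells (x axis), for the 28 measured factors (red steps) and all 11789 measured genes (grey). Dotted lines mark 2-fold: 46.4% of the factors and 11.6% of all genes lie at or left of the lower one.

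The Antennapedia-class and NK-like genes held both ends of the range. Barx1, a factor of the jaw and stomach mesenchyme, had a signal of 106 in Venus-positive cells and of 13.7, below the floor, in Venus-negative cells. It was at least 4.71-fold higher, a log2 ratio above that of 99.3% of measured genes, and rests on its only probe set, which a higher floor at the 75th percentile would leave out. Meox2, a somite and limb muscle factor, was at the opposite end with 185 against 965, 5.20-fold lower, and its second probe set, at 108 against 513, was 4.77-fold lower. Only 1.19% of measured genes had a lower log2 ratio than Meox2. Emx2, which is needed for the shoulder blade as well as for the forebrain and urogenital tract, stood at 25.9 against 125 and was 4.81-fold lower. Meox1, the somite partner of Meox2, was at 29.6 against 114, 3.87-fold lower. Emx2 and Meox1 lay close to the floor in the Venus-positive cells, and with a floor at 114, the 75th percentile, their log2 ratios were -0.13 and -0.00. Nkx3-2, which promotes cartilage in the sclerotome, reached the floor only just, at 23.3 in Venus-positive cells against 10.5, so its log2 ratio of 0.05 is a bound. A lower floor of 5.19, the 25th percentile, gave 1.14. En1, the ventral limb ectoderm factor, was below the floor on both arrays, at 3.53 against 15.4, and so was Barx2, at 17.7 against 18.6. Over the 5 measured genes 3 were at least 2-fold lower and 1 was higher, with a median log2 ratio of -1.95 (-1.62 relative). Of all measured genes 11.6% were lower and 2.79% higher by this size.

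The upstream sequence of the factor with the highest log2 ratio, Barx1, and of those with the lowest, Meox2 and Emx2, is shown to let these differences be read beside the start of each gene. The sequences are the 250 bases before the RefSeq transcription start in GRCm38.p6, all on the plus strand, with every CG dinucleotide in capitals. They lie at chr13:48662786-48663035 for Barx1, chr12:37108290-37108539 for Meox2 and chr19:59458440-59458689 for Emx2.
Barx1: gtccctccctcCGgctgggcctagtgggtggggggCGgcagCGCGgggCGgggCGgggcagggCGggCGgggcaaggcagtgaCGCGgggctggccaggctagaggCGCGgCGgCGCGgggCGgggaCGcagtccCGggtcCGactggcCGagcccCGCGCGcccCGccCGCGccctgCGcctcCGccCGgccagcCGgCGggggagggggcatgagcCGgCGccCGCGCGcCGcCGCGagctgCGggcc
Meox2: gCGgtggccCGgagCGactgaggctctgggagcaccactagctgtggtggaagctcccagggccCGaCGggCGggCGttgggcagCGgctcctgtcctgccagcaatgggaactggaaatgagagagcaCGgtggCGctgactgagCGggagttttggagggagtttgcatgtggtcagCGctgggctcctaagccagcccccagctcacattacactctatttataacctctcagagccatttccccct
Emx2: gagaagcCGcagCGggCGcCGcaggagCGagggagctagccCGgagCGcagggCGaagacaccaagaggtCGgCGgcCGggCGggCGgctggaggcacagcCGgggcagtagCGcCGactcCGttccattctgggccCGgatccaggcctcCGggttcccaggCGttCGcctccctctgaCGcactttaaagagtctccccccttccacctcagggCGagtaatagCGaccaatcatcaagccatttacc
The Barx1 window holds 40 CG, the Meox2 window 12 and the Emx2 window 24. Promoter windows were at hand for 23 of the 32 factors (25 windows, a pair of which overlap). Their median was 15 CG per window, and the median over all 32841 windows of this length was 6. At least 6 CG were present in 23 of the 25, against 16541 of all windows. By direction, the CG count had a median of 13 (range 4 to 25) over 11 factors at least 2-fold lower and of 17 (range 7 to 40) over 10 other measured ones. On both strands, the homeodomain core TAATTA was in 8% of the factors' windows and 4.84% of all, the TATA box TATAAA in 12% and 12.4%, the Meis core TGACAG in 24% and 15.9%, and the Sox core AACAAT in 0 of 25 and 9.43% of all. The Meox2 window holds the TATA box letters only on the strand opposite to the printed one, and the Barx1 and Emx2 windows hold none of the 4 motifs. Matches of different motifs were counted separately, and a match or its lack describes the letters in this window only.

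The paired-type genes split into a lower pair and a level pair. Prrx1, a general marker of limb and craniofacial mesenchyme, was at 784 in cartilage cells against 2113 in Venus-negative cells, 2.69-fold lower, and its 5 measured probe sets gave 1.84- to 3.16-fold. Prrx2, its close relative in the same tissues, was at 93.1 against 358, 3.85-fold lower. By the probe sets that stand for them, both remained past 2-fold on the relative scale, with -1.10 and -1.61. The 5 measured probe sets of Prrx1 ran from -1.33 to -0.55 on that scale, so not all were past 2-fold. Shox2, which sets the length of the upper limb segment and acts in its chondrocytes, was nearly the same in both fractions, at 1103 against 1167, and its second probe set was at 193 against 256. Pitx1, the factor that gives the hindlimb its identity, was likewise at 159 against 165, with 107 against 151 on its second probe set. Shox2 and Pitx1 were slightly below 0 on the deposited scale (-0.08 and -0.05) and slightly above it relative to the median gene (0.25 and 0.28), by quantile normalization and by scaling to the hybridisation controls, so they have no settled direction. Alx1, a factor of the frontonasal mesenchyme, was above the floor only in Venus-positive cells, at 39.3 against 17.9, and was at least 1.75-fold higher, or 1.14 relative to the median gene on the log2 scale. Its second probe set was below the floor on both arrays, at 19.5 against 5.69. Alx4 (1.57 against 9.62) and the somite factor Uncx (1.52 against 1.09) were not measured in either fraction. The family median of the 5 measured genes, -0.08, is that of Shox2 and turns to 0.25 on the relative scale.

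All 3 LIM homeobox genes were at least 2-fold lower, 2 of them also on the relative scale. Of all measured genes 11.6% were lower by this size, and 6.45% on the relative scale. Lhx2 and Lhx9 keep the growing tip of the limb bud responsive to its signalling centres, and Lmx1b gives the limb its dorsal side. Lhx2 was at 80.2 against 308, 3.84-fold lower. Lhx9 was at 180.0 against 420.2, 2.33-fold lower (-0.89 relative), and 3 further probe sets gave 1.49- to 3.07-fold, the smallest as a bound. Lmx1b was at 30.1 against 115, 3.82-fold lower, and its other probe set was below the floor on both arrays. The Lmx1b value is near the floor in Venus-positive cells, and its log2 ratio of -1.93 became -0.01 under the higher floor of 114. The median log2 ratio of the family was -1.93 (-1.60 relative).

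**Figure D2:**
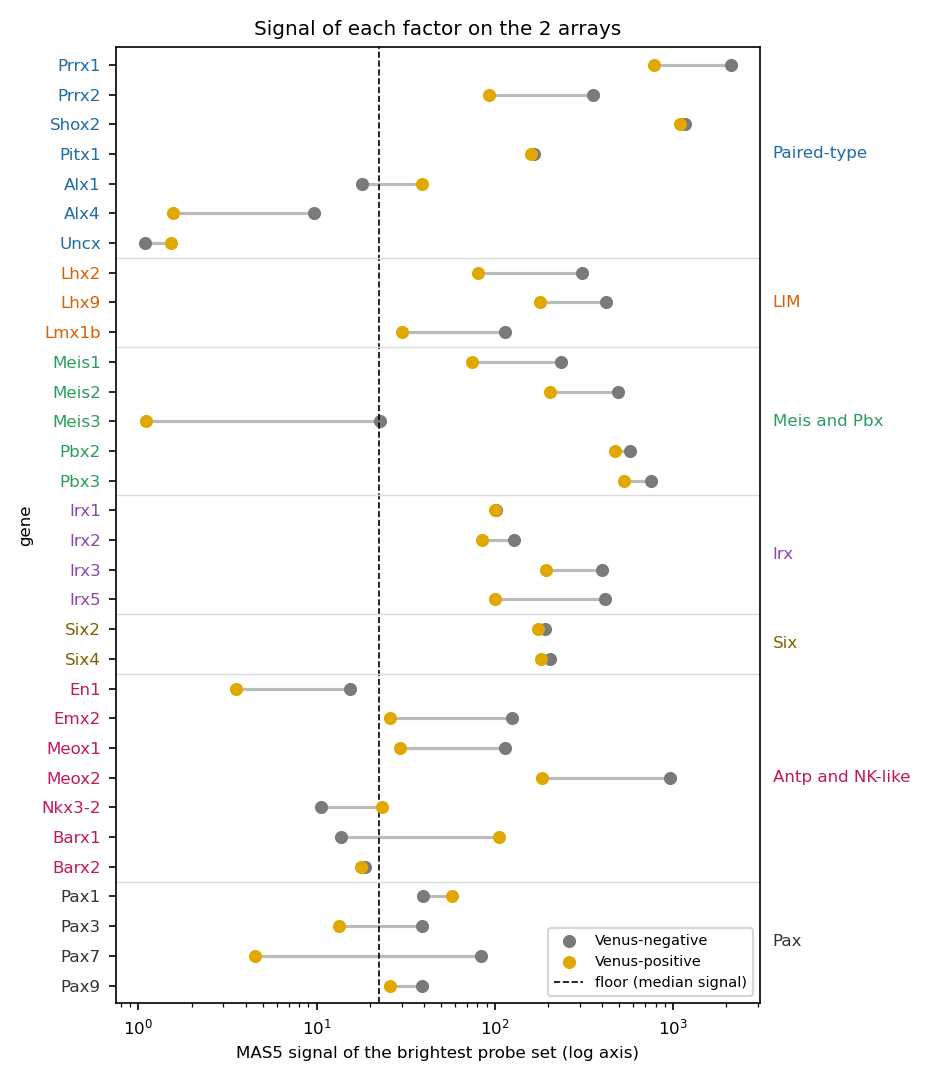
MAS5 signal (x axis, log scale) of the probe set with the highest mean signal of each of the 32 factors (y axis, by family) in Venus-negative (grey) and Venus-positive (yellow) cells, with the floor of 22.5 as a dashed line. Grey lies well to the right for Prrx1, Prrx2, the LIM genes, Meis1, Meis3, Irx5, Meox1, Meox2, Emx2 and Pax7, among others. The colours nearly coincide for Shox2, Pitx1, Irx1, Six2 and Six4, among others. Yellow lies to the right for Barx1, Alx1, Pax1, Nkx3-2 and Uncx, the last with both signals below the floor. Positions of different genes are not comparable levels.

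Within the TALE class Meis1 and Meis2 were at least 2-fold lower, and Pbx2 and Pbx3 were near the median gene. Meis1 and Meis2 mark the proximal part of the limb and bind DNA together with Pbx proteins. Meis1 was at 74.5 against 235, 3.16-fold lower, with a second probe set at 18.8 against 41.8, at least 1.86-fold lower. Meis2 was at 206 against 490.5, 2.38-fold lower, and its 4 probe sets ranged from 2.38- to 3.74-fold. On the relative scale the brightest probe set of Meis1 stayed past 2-fold (-1.33) and that of Meis2 did not (-0.92). This order depends on the probe set. The second of Meis1 gave -0.56, as a bound, and those of Meis2 reached -1.57. Averaged over probe sets, the log2 ratios on the deposited scale were -1.28 for Meis1 and -1.47 for Meis2. Meis3 had signals of 22.6, just at the floor, in the Venus-negative fraction and of 1.10 in the Venus-positive one, so that its log2 ratio of -0.01 is no more than a bound, and the lower floor of 5.19 gave -2.12. Pbx2 was at 474 against 577, and its 3 probe sets gave 1.19- to 1.52-fold lower signals. Pbx3 was at 530.1 against 753.5, 1.42-fold lower. Relative to the median gene Pbx2 lay at 0.05 and Pbx3 at -0.18, both within the disagreement between probe sets. Over the 5 genes 2 were at least 2-fold lower and none higher, beside 11.6% and 2.79% of all measured genes. The median was -0.51 (-0.18 relative).

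The 4 Irx genes ran from level to 4-fold lower. Irx3 and Irx5, which are adjacent protein-coding genes on chromosome 8 of GRCm38.p6 and act together in the early hindlimb bud, were at least 2-fold lower on the deposited scale. Irx5 was at 101 against 418, 4.14-fold lower, and Irx3 at 194 against 401, 2.06-fold lower. Irx1 and Irx2 are adjacent on chromosome 13, and neither was 2-fold lower. Irx1 was at 100.5 against 101.2 and Irx2 at 84.6 against 129, 1.53-fold lower. The relative log2 ratios were -1.72 for Irx5, -0.71 for Irx3, -0.28 for Irx2 and 0.32 for Irx1, whose sign thus depends on the scale. Each Irx gene rests on 1 probe set, Irx3 is just past the 2-fold size on the deposited scale only, and it lay closer to Irx2 (0.44 apart on the log2 scale) than to its neighbour Irx5 (1.01 apart). The family median was -0.83 (-0.49 relative), and 2 of the 4 genes were at least 2-fold lower, beside 11.6% of all measured genes.

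Six2 and Six4, which work with Eya proteins in head mesenchyme, kidney and muscle precursors, did not differ by 2-fold. Six2 was at 174 against 192. Six4 was at 182 against 205, and of its 3 measured probe sets the ratios ran from -0.17 to 0.32 on the log2 scale. Both were below 0 on the deposited scale (-0.14 and -0.17) and above it relative to the median gene (0.19 and 0.16), by quantile normalization and by scaling to the hybridisation controls.

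Among the Pax genes only Pax7 was at least 2-fold lower, and none was 2-fold higher. Pax7, a marker of muscle precursors and of dorsal neural tube, had a signal of 83.4 in Venus-negative cells and only 4.48, under the floor, in cartilage cells, which gives a fold of at least 3.71. Its second probe set was at 1.18 against 29.9, where the bound is only 1.33-fold. The Pax7 log2 ratio of -1.89 was -4.01 with the lower floor of 5.19 and -1.15 as the mean over its probe sets. Pax3, which acts earlier in the same cells, was at 13.3 against 39.2, at least 1.74-fold lower (a log2 ratio of -0.80, or -0.47 relative, and -1.56 with the lower floor), and its other 2 probe sets were below the floor on both arrays. Pax1 was the one Pax gene with a higher signal in Venus-positive cells, at 57.5 against 39.6, a log2 ratio of 0.54 (0.87 relative) that lay above 93.4% of measured genes but under 2-fold. Pax9, its partner in the sclerotome, was at 25.7 against 39.1 on its brightest probe set (-0.61) and at 24.0 against 16.1 on another (0.09), so its probe sets lay on opposite sides of 0. The median log2 ratio of the 4 genes was -0.70 (-0.37 relative), with 1 at least 2-fold lower, beside 11.6% of all measured genes.

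**Figure D3:**
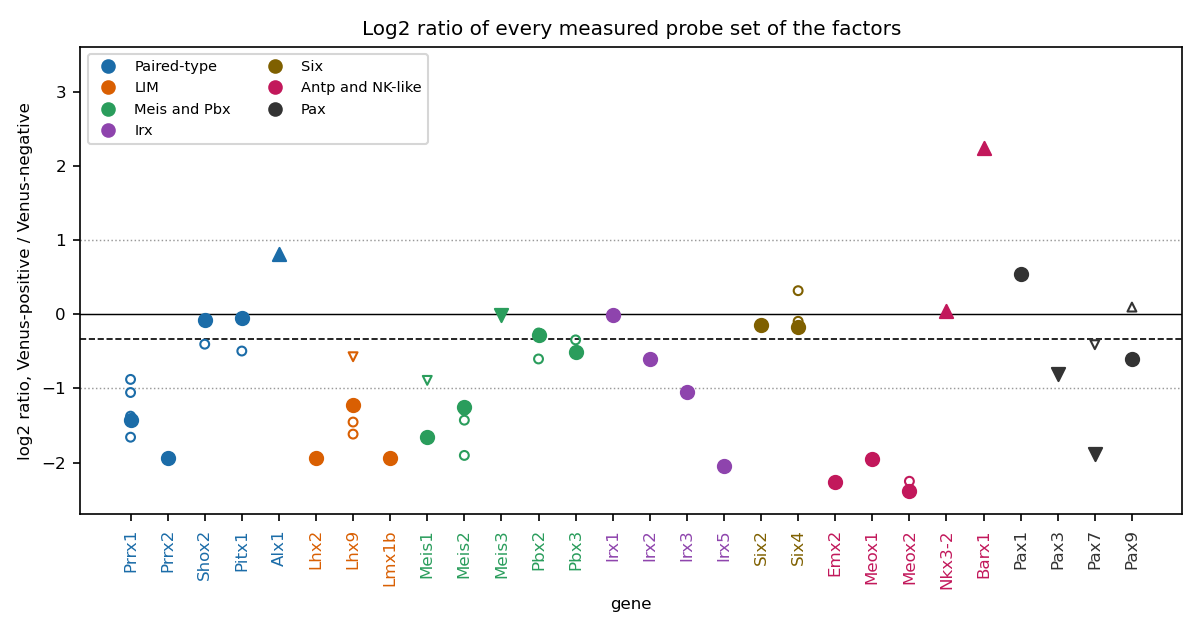
Log2 ratio, Venus-positive cells over Venus-negative cells, (y axis) of all 49 measured probe sets of the 28 measured factors (x axis), coloured by family. Filled markers are the probe set that stands for the gene, open ones its others, and triangles are bounds where 1 side was below the floor; the solid line is 0, the dashed line the median gene (-0.33) and the dotted lines 2-fold. Most families spread over more than 1 log2 unit, and Barx1 stands alone above the upper dotted line.

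Within families, log2 ratios of measured factors lay from 0.008 (Lhx2 and Lmx1b) to 4.61 apart, some of them between bounds. The widest pair was Meox2 and Barx1, at least 4.61 apart, and the widest of the paired-type and Pax families were Prrx2 and Alx1 (at least 2.75) and Pax1 and Pax7 (at least 2.43). Prrx1 and Prrx2 were 0.51 apart and Meox1 and Meox2 0.43 apart, all of them lower, and Six2 and Six4 were 0.03 apart. The factors were also sorted by a region in which each is known to act, a coarse grouping since several act in more than 1. Each was placed in 1 region, with earlier results of these data known. Prrx1 and Prrx2, also craniofacial, count as limb, as do Irx3 and Irx5, while Irx1 and Irx2 count as head. Any contrast between regions depends on this placing. Of 15 measured factors placed in the limb 10 were at least 2-fold lower (7 relative) and none higher. Among all measured genes 11.6% (6.45% relative) were lower. The median log2 ratio of these 15 factors was -1.25 (-0.92 relative). Of 6 placed in the face and head (Alx1, Barx1, Six2, Six4, Irx1 and Irx2) none was 2-fold lower and Barx1 was higher, with a median of -0.08 (0.25 relative). Of 5 placed in the sclerotome or whole somite Meox1 and Meox2 were lower, and the median was -0.61 (-0.28 relative). Pax3 and Pax7, placed in the dermomyotome and neural crest, had a median of -1.35 (-1.01 relative), from bounds.

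Of 21 measured genes on a list of protein partners, 5 were at least 2-fold lower on both scales and none higher, beside 11.6% (6.45% relative) of all measured genes lower, with a median log2 ratio of -0.72 (-0.38 relative), against -0.33 for all genes. Lmo2, a LIM-only adaptor of blood and endothelial cells, was at 30.4 against 222, 7.29-fold lower. Dach1 and Eya1, which work with Six2 and its relatives, were 3.36-fold (94.1 against 316) and 3.06-fold lower (35.7 against 109), beside Six2 and Six4 that did not differ by 2-fold. The short Groucho-type co-repressor gene Tle5 was 2.71-fold lower, and Ldb2, which bridges LIM factors, was 2.60-fold lower. Of 36 further genes of the same homeobox and Pax families with a probe set of their own only 11 were measured, 2 of them at least 2-fold lower (Isl1, 66.2 against 151, and Gsc, 24.1 against 48.3) and none relative to the median gene, beside the 11.6% and 6.45% of all measured genes. Gsc lies at the 2-fold size itself. The next were Mkx, a tendon factor, at 131 against 244 and Otp at 19.9 against 33.9.

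Markers of other cell types were mostly lower as well, and their part in the differences of the factors was not tested. Among all measured genes 11.6% were at least 2-fold lower (6.45% relative to the median gene). Of 17 connective tissue genes, all measured, 12 had a cartilage-cell signal at least 2-fold lower (10 relative) and none had a higher one. Their signals summed to 18245 against 35526, and Dpt and Scx were below the floor in Venus-positive cells. The lowest were Kera, Dcn, Tnmd and Dpt, at least 6.66-fold lower. This list stands beside mesenchymal factors that were at least 2-fold lower: Prrx1, Prrx2, Lhx2, Lhx9, Lmx1b, Meis1, Meis2, Irx3, Irx5 and Emx2. Some other limb or head factors were not lower to this size. Log2 ratios were -0.08 for Shox2, -0.05 for Pitx1, -0.14 for Six2, and bounds of 0.80 for Alx1 and 2.23 for Barx1. The skeletal muscle list stands beside Pax3, Pax7, Meox1 and Meox2, also picked from the lower factors. Six4, likewise active in muscle precursors, had a log2 ratio of -0.17. Of 18 skeletal muscle genes 13 were measured. At least 2-fold lower were 12 (9 relative to the median gene) and none was higher, with summed signals of 484 against 4634. In Venus-positive cells 12 of the 18, Myf5 and Myod1 among them, were below the floor, while Myog was at 40.9 against 645, Tnnt1 at 36.6 against 589, Actc1 at 164 against 2268 and Myh3 at least 11.1-fold lower.

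Lists of neural, epithelial, endothelial, leukocyte and erythroid genes also had lower medians. Their counts stand beside 11.6% of all measured genes at least 2-fold lower (6.45% relative to the median gene). Of 13 measured neuronal, neural progenitor and neural crest genes 7 were at least 2-fold lower (5 relative to the median gene), with summed signals of 548 against 1430, and 7 of the 15 on the array, Sox2 among them, were below the floor in Venus-positive cells. The neural crest gene Sox10 went the other way, at 41.0 in Venus-positive cells against 16.7, at least 1.82-fold higher, or 1.20 relative to the median gene on the log2 scale. This list stands beside Pax3, Pax7, Emx2 and Lhx2, picked from the lower factors, which the embryonic brain or neural tube also expresses. Its lowest genes were Nefl, Nefm, Gap43 and Stmn2, 3.28- to 5.34-fold lower. At least 2-fold lower were also 11 of 13 epithelial genes (summed 467 against 2013; Cdh1, Krt14, Trp63 and Dsp, at least 5.61-fold), 8 of 8 endothelial genes (169 against 920; Plvap, Ecscr, Emcn and Cdh5, at least 4.89-fold), 7 of 8 leukocyte genes (161 against 1913; Csf1r, Mrc1, Tyrobp and Lyz2, at least 9.93-fold) and 5 of 6 erythroid genes (12271 against 17353; Slc4a1, Alas2, Hbb-bh1 and Klf1, at least 3.49-fold). The erythroid sum is mostly Hbb-y, which was nearly level at 11912 against 13190. Such sums add probe sets that differ in response and describe each list on these arrays only. In the cartilage list the opposite held, with 69528 against 4874 and Matn1, Comp, Matn3 and Acan at least 55.3-fold higher.

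**Figure D4:**
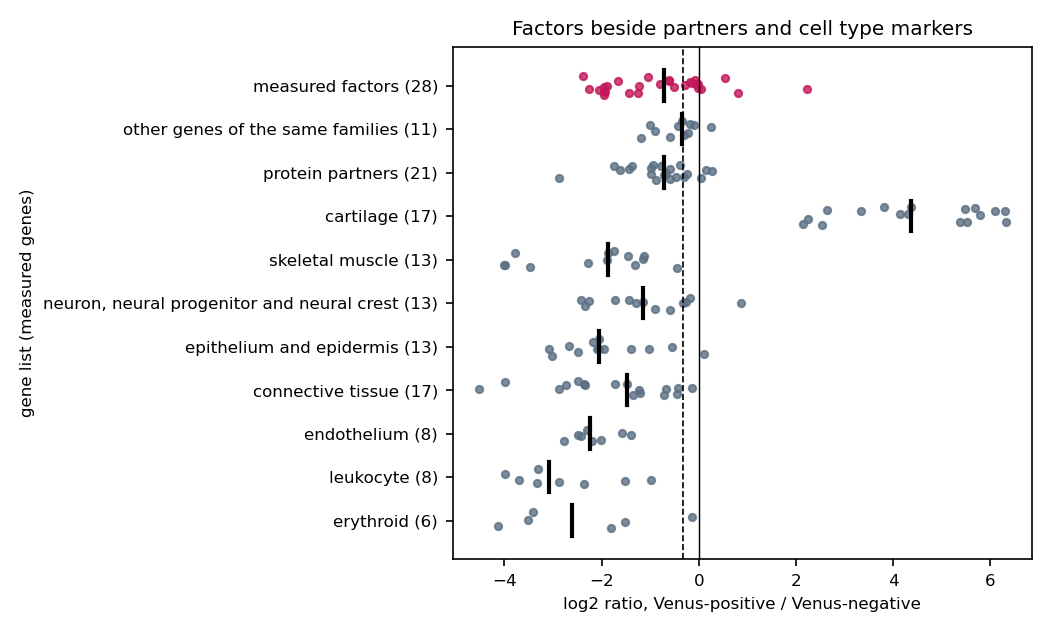
Log2 ratio, Venus-positive cells over Venus-negative cells, (x axis) of the measured genes of each list (y axis, number measured in brackets). Each point is a gene, the short black bar is the list's median, the solid line is 0 and the dashed line the median gene. The factors (red) spread from -2.38 to 2.23. Their median of -0.71 lies between that of the cartilage genes (4.36) and those of the lists of other cell types (from -1.14 to -3.09).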

How the data were processed

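The 2 arrays were of sorted embryonic mouse cells, 1 per group, with groups taken from the cell type in the labels. In the deposited table each probe set has a linear signal intensity, made by the authors with MAS5 according to the submitters' processing notes. The MAS5 version, its scaling target and its calls of presence are not stated there. Of 45037 non-control probe sets 34945 had 1 annotated symbol, and only these were used. The 32 genes matched RefSeq (GRCm38.p6) by identifier and symbol.

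The floor, the log2 ratio and the choice of probe set are described with the results. Calculations used Python 3.11.15, pandas 2.3.3 and NumPy 2.4.6, and were tested on simulated data. Simulated differences were placed only in genes well above the floor in Venus-negative cells. Recovery in genes near or below it there was not tested. A fold with 1 side under the floor is a lower bound. Sizes of 2-fold and 4-fold are no tests, and the number of arrays limits the precision. The factors, gene lists and sizes were chosen with earlier results of these data known. Named were all 32 factors, Col2a1, Sox9 and the 4 genes of each other list with the largest absolute log2 ratio. Ldb2, Sox10, Hbb-y and marker genes listed as below the floor were named after their values were seen. Promoter sequences came from RefSeq. The 8 alternatives were centring on the median gene, quantile normalization, scaling to 18 hybridisation controls, a floor at the 25th or at the 75th percentile, log2(signal + 16) with neither floor nor filter, averaging a gene's probe sets, and dropping probe sets of the types _x_at and _s_at, designed against several transcripts.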

Additional observations from a re-analysis of the deposited data

How the results depend on the processing

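Shifts of a count by over 1.5 times, or of a family median by over 0.34 (the pooled SD between probe sets), are given here. The count of factors at least 2-fold lower, 13, ran from 9 to 16 over the 8 alternatives, while the count at least 2-fold higher, 1, was 2 after centring and by quantile normalization, 3 with the lower floor (25th percentile) and 0 with the higher floor (75th percentile). Centring, quantile normalization and scaling to the hybridisation controls each gave 10 factors at least 2-fold lower. The mean log2 ratio of these controls was -0.29. Relative to the median gene, the higher count of 2 was 1 without a floor and 0 with the higher floor, and the lower count of 10 was 5 with the higher floor. Irx5, Lhx2, Meis1, Meox2, Pax7, Prrx1 and Prrx2 were at least 2-fold lower under every alternative that measured them (Pax7 was not measured with the higher floor). Family medians moved as follows. Quantile normalization gave -1.52 for LIM and -1.54 for Antennapedia-class and NK-like genes. The lower floor gave -0.49 for paired-type, -1.25 for Meis and Pbx, -1.57 for Antennapedia-class and NK-like and -1.08 for Pax genes. The higher floor gave -0.76 for paired-type, -1.22 for LIM and -0.13 for Antennapedia-class and NK-like genes. Without a floor the values were -1.51 for LIM, -1.17 for Meis and Pbx and -0.69 for Antennapedia-class and NK-like genes. Log2 ratios of single factors moved by over 0.34 for 8 factors by quantile normalization, 5 with the lower floor, 6 with the higher floor, 6 without a floor and 3 with the mean over probe sets. Over all alternatives Pax7 ran from -4.01 to -1.15, Pax3 from -1.56 to -0.47, Barx1 from 2.03 to 2.95, Lhx2 from -1.94 to -1.43, Meis1 from -1.66 to -1.05 and Irx2 from -0.61 to -0.18. The floor settings also change which genes are measured. No paired analysis was possible because each group has 1 sample. No replicate could be left out for the same reason. With 1 array per fraction, differences near 2-fold, and those of genes near the floor, are the least secure.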
